A study of Mus musculus with 16 samples.

Results

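The collagen chain genes were read in RNA-seq counts of C2C12, a mouse muscle precursor line whose myoblasts form multinucleated myotubes in low serum. Members were the protein-coding genes present in both count tables whose GENCODE mouse symbol has the form of a collagen chain, Col, a type number, the letter a and a chain number. The rule found 44 genes of 27 collagen types among the 21734 protein-coding genes and 49585 genes in all. They fall into 11 fibrillar, 8 basement membrane and 25 other collagens, and lie on 15 chromosomes.

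The first table holds WT and AMPK-KO cells as myoblasts at differentiation day 0 (d0) and as cultures at day 8 in differentiation medium (d8), with 2 libraries in each of the 4 groups. From cell shape and myosin heavy chain protein, the paper reports that AMPK-KO cells wholly lost the ability to form myotubes. AMPK-KO cells lack both catalytic subunits of AMP-activated protein kinase through CRISPR-Cas9 editing of *Prkaa1* and *Prkaa2*. The second table holds AMPK-KO cells at d0 that carry a FLAG-BirA tag at the endogenous *Tet2* locus, either on unmutated TET2 (TET2-WT) or on TET2 with the phosphomimetic S97E change (TET2-S97E), so both of its genotypes share the AMPK deletion and the tag. Each of these genotypes has 2 clones with 2 libraries per clone. The labels do not assign the AMPK-KO libraries to knockout lines. The paper's legend to its MeDIP-seq and RNA-seq tracks names 2 independent AMPK-KO lines. The AMPK-KO replicates may therefore be separate lines, and differences between lines cannot be told from those between libraries. The labels also do not say whether the libraries of a group came from separate cultures. The p-values thus measure the spread between these libraries, which may be technical. The 2 tables were normalized and tested separately.

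Collagens are triple-helical proteins of the extracellular matrix, each built from 3 alpha chains. Fibrillar collagens such as types I, III and V form the cross-striated fibrils of connective tissue, and most type I molecules join the products of *Col1a1* and *Col1a2*. Type IV collagen forms the sheet-like network of basement membranes, which surround every muscle fibre. Its chains are made by gene pairs that stand head to head and share the region between their starts: *Col4a1* with *Col4a2*, *Col4a3* with *Col4a4*, and *Col4a5* with *Col4a6*. Type VI collagen forms beaded filaments in the matrix of muscle, and the remaining types include fibril-associated, network-forming and transmembrane collagens. In muscle tissue most collagen is made by fibroblasts, but C2C12 myoblasts also express collagen genes.

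Both chains of 2 type IV pairs were called between genotypes, so the bases at the starts of these pairs are shown first. In GRCm38, *Col4a6* runs on the minus strand of chromosome X from 141165403 to 141474076, and *Col4a5* on the plus strand from 141475385 to 141689234, with 1308 bases between the starts. *Col4a1* runs on the minus strand of chromosome 8 from 11198423 to 11312826 and *Col4a2* on the plus strand from 11312805 to 11449287, so that their first exons overlap by 22 bases. *Col4a3* and *Col4a4* on chromosome 1 lie 71 bases apart. The bases before the annotated starts of *Col4a5* (chrX:141475169-141475384, plus strand, 216 bases) and *Col4a6* (chrX:141474077-141474326, minus strand, 250 bases), and the first bases that *Col4a1* and *Col4a2* share (chr8:11312805-11312826, plus strand), are printed from RefSeq (GRCm38.p6), each from 5′ to 3′. Capitals mark matches, on either strand, to the CCAAT box (CCAAT) or the GC box (GGGCGG). The TATA box (TATAAA), searched in the same way and found in 12.4% of all such windows, has no match in them.
Col4a5: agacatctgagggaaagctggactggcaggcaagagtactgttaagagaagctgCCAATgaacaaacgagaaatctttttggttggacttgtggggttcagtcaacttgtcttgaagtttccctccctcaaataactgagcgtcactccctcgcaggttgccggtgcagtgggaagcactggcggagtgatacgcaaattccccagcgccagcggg
Col4a6: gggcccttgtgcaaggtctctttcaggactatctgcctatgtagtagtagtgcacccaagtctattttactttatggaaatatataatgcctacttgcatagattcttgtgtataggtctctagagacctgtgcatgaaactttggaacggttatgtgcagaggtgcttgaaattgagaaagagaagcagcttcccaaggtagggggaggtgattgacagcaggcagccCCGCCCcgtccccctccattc
Col4a1/Col4a2: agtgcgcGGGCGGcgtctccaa
The GC box occurs in 32.7% and the CCAAT box in 33.8% of the 32817 windows searched, each the 250 bases before a RefSeq start, so either match is common and is given as a description. The printed stretch of *Col4a5* is shorter, since it ends at the earlier GENCODE start, and the full 250 bases before its RefSeq start hold 1 GC box that it leaves out. The 250 bases before the starts of *Col4a1* and *Col4a2* are not printed. They hold 1 CCAAT box for each gene, and 2 GC boxes for *Col4a2*. The shares above do not apply to the short stretch that this pair shares. RefSeq windows were found for 35 of the 44 members.

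The WT and AMPK-KO libraries held between 17883417 and 24663079 counts each, and the TET2 libraries between 19801909 and 37790358. Of these, collagen genes accounted for 0.595 to 1.87% in WT and AMPK-KO and for 1.39 to 2.64% in the TET2 libraries. On the scale of TPM (counts per exon length, scaled to the same sum in every library), *Col3a1*, the chain of type III collagen, was the most abundant member in both tables and alone took 30.4 to 66.0% and 45.6 to 66.8% of the collagen counts. In the first table it was followed by *Col1a2*, *Col5a2*, *Col5a1*, *Col6a1*, *Col1a1*, *Col4a1*, *Col4a2*, *Col8a1* and *Col6a3*, with mean levels from 505 down to 77.1 TPM. In the second it was followed by *Col6a1*, *Col1a2*, *Col5a2*, *Col6a3*, *Col6a2*, *Col5a1*, *Col4a1*, *Col12a1* and *Col4a2*, with mean levels from 763.7 down to 134.2 TPM. Fibrillar genes supplied 69.2 to 89.1% of the summed collagen TPM of the WT and AMPK-KO libraries and 62.0 to 80.1% of that of the TET2 libraries.

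**Figure D1:**
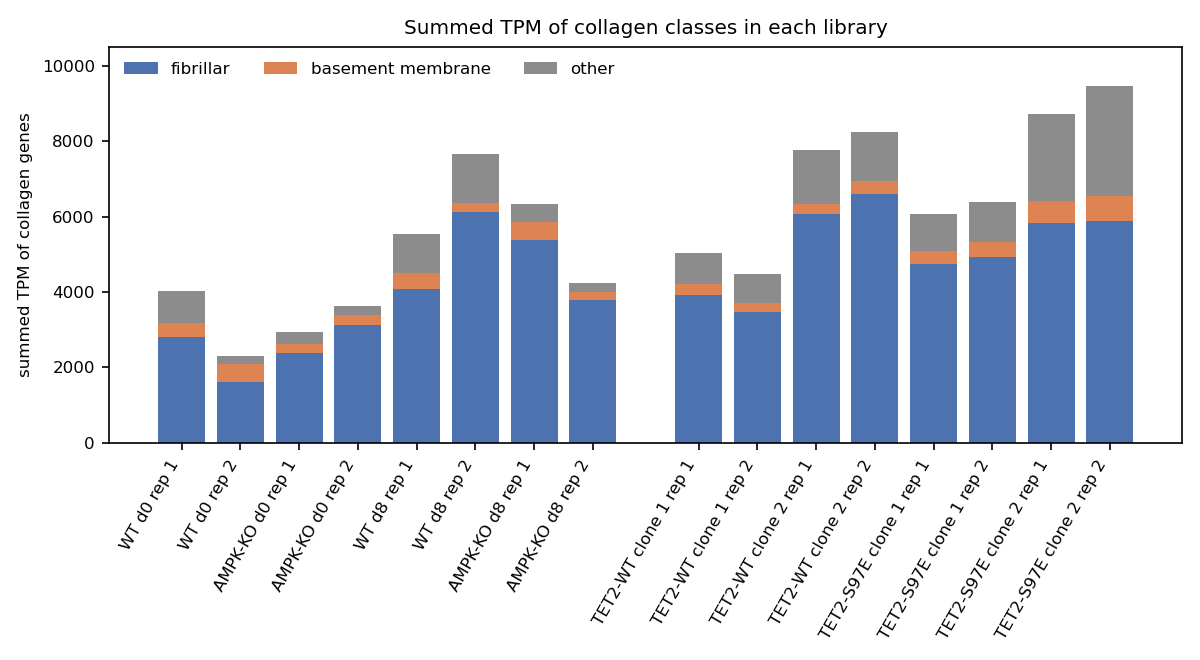
Summed TPM of the fibrillar (blue), basement membrane (orange) and other (grey) collagen genes, stacked, in each of the 16 libraries; the 2 tables were normalized separately. The sums run from 2310 TPM in WT d0 replicate 2 to 9471 TPM in TET2-S97E clone 2 replicate 2, and the fibrillar class is the largest in every library.

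After the filter on low counts, 31 of the 44 members were tested in the first table and 27 in the second, 24 of them in both and 10 in neither. The 13 members not tested in the first table had at most 14 counts in any library, and the 17 in the second at most 12. They include *Col2a1* and *Col9a1*, collagens of cartilage, and *Col4a3* and *Col4a4*, chains of specialised basement membranes such as that of the kidney glomerulus. The filter keeps a gene that is high in 1 group alone, so counts and medians over the tested members describe those members only.

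Several libraries stood apart from their replicate. In WT d0, 10 of the 26 members with at least 10 counts differed more than 2-fold between the replicates: *Col12a1* was at 113 and 7.64 TPM, *Col6a1* at 356 and 59.7 TPM and *Col6a2* at 121 and 14.7 TPM, each higher in replicate 1. The same was true of 7 of 32 members in WT d8, 5 of 25 in AMPK-KO d8 and 3 of 21 in AMPK-KO d0. In the second table it was true of 7 of 26 members in TET2-S97E clone 2, 6 of 27 in TET2-WT clone 2, 3 of 28 in TET2-S97E clone 1 and 0 of 26 in TET2-WT clone 1.

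The edited genes were read first. *Prkaa1* was at 124 and 118 TPM in WT d0 and at 57.4 and 59.1 TPM in AMPK-KO d0, and was lower in AMPK-KO cells at both days (adjusted p = 0.0116 and 0.0419, edgeR quasi-likelihood test). *Prkaa2* was at 0.774 and 0.777 TPM in WT d0 and at 0.0881 and 0.186 TPM in AMPK-KO d0 (adjusted p = 0.0527), and at d8 it was lower in AMPK-KO cells (adjusted p = 0.0190). The edits alter bases within exons, so the remaining reads do not by themselves check the loss of protein. *Tet2* ran from 3.98 to 11.8 TPM in TET2-WT and from 1.54 to 4.42 TPM in TET2-S97E (adjusted p = 0.0621). *Des*, which encodes desmin and is 1 of 6 myoblast markers, was between 623 and 3147 TPM in all 16 libraries. Others of these markers, *Myod1*, *Pax7* and *Msc*, were called lower in AMPK-KO cells at d0.

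Which collagen genes differ between AMPK-KO and WT myoblasts? At d0, *Col4a5* and *Col4a6* rose in AMPK-KO cells and *Col18a1* fell, which are 3 of the 5 basement membrane genes tested. No fibrillar gene and none of the 16 other collagens tested passed the edgeR test. The 2 members called higher stand against 0.698% of all 14329 tested genes called higher, and the 1 called lower against 2.83% called lower. With replicate numbers as a block, 5 members were called, *Col14a1* and *Col28a1* being lower in addition. The DESeq2 Wald test called more members, *Col6a1* and *Col6a2* among them, and DESeq2 is the package the paper names. So did the edgeR fit with no filter on low counts. Calls over all genes went from 505 to 1393 and 2026 under these settings, so the set of members called depends on the model.

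*Col4a5*, an alpha chain of type IV collagen, was at 17.8 and 12.5 TPM in WT d0 and at 47.2 and 52.0 TPM in AMPK-KO d0. It was 3.39-fold higher in AMPK-KO cells, with a log2 fold change of 1.76 ± 0.18 (SE, adjusted p = 0.00861, edgeR). *Col4a6*, its head-to-head partner, was at 0.486 and 0.141 TPM in WT d0 and at 6.54 and 4.16 TPM in AMPK-KO d0. Both AMPK-KO libraries stood above both WT libraries for either gene, although the WT values of *Col4a6* rest on 22 and 6 counts. The log2 fold change of *Col4a6* was 4.14 ± 0.54 (SE, adjusted p = 0.0131, edgeR). *Col18a1*, whose product carries the endostatin fragment at its end, was at 91.7 and 212 TPM in WT d0 and at 11.05 and 25.9 TPM in AMPK-KO d0 (log2 fold change −3.02 ± 0.52, SE, adjusted p = 0.0283, edgeR). Its WT replicates differed from each other by more than 2-fold, but both lay above the AMPK-KO values. None of the 3 genes was called when either AMPK-KO d0 library was left out, where calls over all genes went from 505 to 17 without replicate 1 and to 46 without replicate 2. *Col18a1* also lost its call without WT d0 replicate 2 and without either WT d8 library, whereas leaving out WT d0 replicate 2 gave 6 calls, with *Col6a1*, *Col6a2*, *Col8a2* and *Col14a1* lower.

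The other pair, *Col4a1* and *Col4a2*, which encode the chains found in nearly all basement membranes, did not pass the test at d0. *Col4a1* was at 143 and 149 TPM in WT d0 and at 92.5 and 88.45 TPM in AMPK-KO d0 (log2 fold change −0.64 ± 0.57, SE, adjusted p = 0.577, edgeR). The TPM ratio of *Col4a5* to *Col4a1* was 0.0842 to 0.244 over the 4 WT libraries and 0.511 to 2.25 over the 4 AMPK-KO libraries.

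At d8, *Col4a5* and *Col4a6* again rose in AMPK-KO cells, and *Col1a1*, *Col11a1*, *Col23a1* and *Col28a1* fell. The 2 members called higher stand against 1.36% of all tested genes and the 4 called lower against 3.98%. The block by replicate number gave 10 calls, with *Col6a2*, *Col8a1*, *Col8a2* and *Col14a1* lower in addition, and with only the d8 libraries 10 were called as well, *Col1a1* not among them (adjusted p = 0.0553, edgeR). *Col4a5* was at 22.65 and 24.9 TPM in WT d8 and at 95.7 and 102 TPM in AMPK-KO d8 (4.30-fold, log2 fold change 2.11 ± 0.18, SE, adjusted p = 0.0040, edgeR). *Col4a6* was at 0.256 and 0.259 TPM in WT d8 and at 20.1 and 12.9 TPM in AMPK-KO d8 (log2 fold change 6.03 ± 0.59, SE, adjusted p = 0.0047, edgeR). These 2 calls held without any single library and under every other setting tried in which the gene passed the filter; the filter of at least 10 counts in every library removed *Col4a6*.

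*Col1a1*, the main chain of type I collagen, was at 253 and 811 TPM in WT d8 and at 19.35 and 40.3 TPM in AMPK-KO d8. All AMPK-KO values were below all WT values, and the log2 fold change was −4.11 ± 0.69 (SE, adjusted p = 0.0223, edgeR). Its call was lost without WT d8 replicate 2 or AMPK-KO d8 replicate 1. At d0 it was at 311 and 148 TPM in WT and at 49.45 and 71.4 TPM in AMPK-KO, a difference that did not pass the test (log2 fold change −1.87 ± 0.63, SE, adjusted p = 0.156, edgeR).

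*Col1a2*, the partner chain of type I, was at 431.5 and 700 TPM in WT d8 and at 500 and 366 TPM in AMPK-KO d8, and its groups overlapped (log2 fold change −0.34 ± 0.32, SE, adjusted p = 0.574, edgeR). The TPM ratio of *Col1a1* to *Col1a2* was 0.442 to 1.16 over the 4 WT libraries and 0.0387 to 0.110 over the 4 AMPK-KO libraries. In the TET2 table, where all cells lack AMPK, it was 0.0357 to 0.276 in TET2-WT and 0.0379 to 0.140 in TET2-S97E. No library without AMPK reached the lowest ratio of a WT library.

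**Figure D2:**
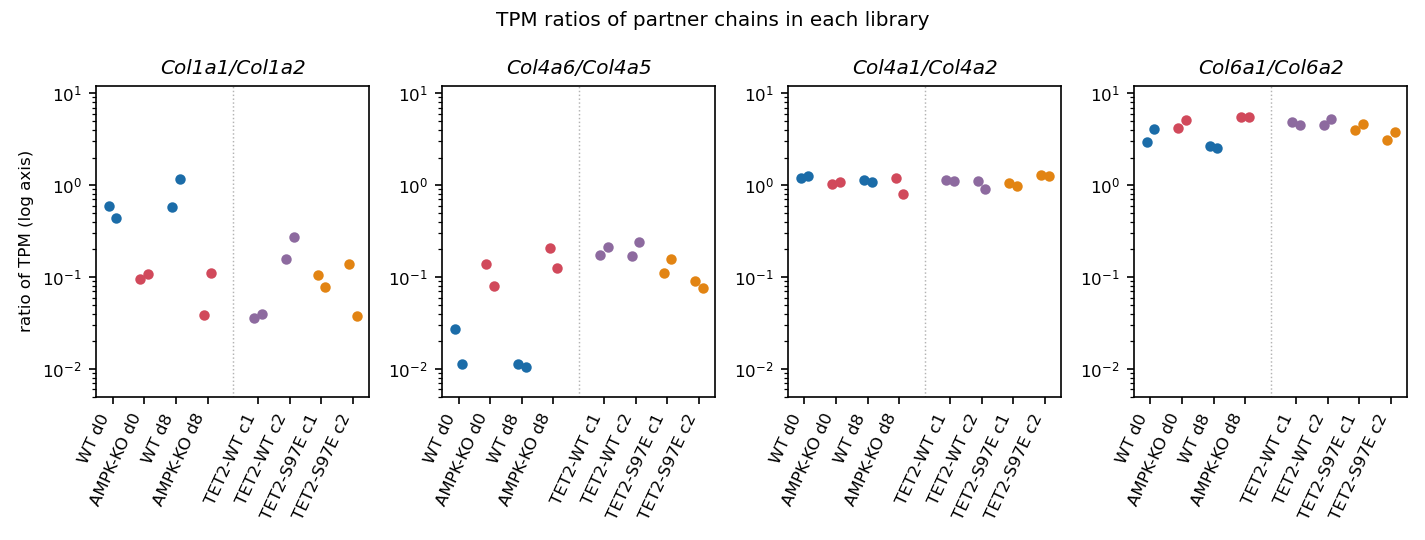
Ratio of the TPM of partner chains in each library, on a log axis, with 1 point per library, WT in blue, AMPK-KO in red, TET2-WT in purple and TET2-S97E in orange; the dotted line separates the 2 tables and c1 and c2 are clones. *Col1a1/Col1a2* is lower and *Col4a6/Col4a5* higher in every library without AMPK than in every WT library, while *Col4a1/Col4a2* stays between 0.811 and 1.29.

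The further genes that fell at d8 were low in AMPK-KO cells at both days. *Col23a1*, a transmembrane collagen, was at 6.85 and 20.7 TPM in WT d8 and at 0.282 and 0.149 TPM in AMPK-KO d8 (log2 fold change −5.92 ± 0.79, SE, adjusted p = 0.0124, edgeR). *Col28a1* was at 10.4 and 4.85 TPM in WT d8 and at 0.180 and 0.0349 TPM in AMPK-KO d8 (log2 fold change −6.00 ± 0.83, SE, adjusted p = 0.0176, edgeR). *Col11a1*, a minor fibrillar chain, had 37 and 52 counts in WT d8 and none in AMPK-KO d8, so it was at least 16.7-fold lower with the floor of 3 counts per library (adjusted p = 0.0294, edgeR). Both AMPK-KO d8 libraries were below both WT d8 libraries for all 3 genes. Leaving out WT d8 replicate 2 ended all 3 calls, WT d8 replicate 1 those of *Col11a1* and *Col28a1*, AMPK-KO d8 replicate 1 those of *Col11a1* and *Col23a1*, and AMPK-KO d8 replicate 2 or AMPK-KO d0 replicate 2 that of *Col11a1*. Calls over all genes went from 766 to 108 without WT d8 replicate 1, to 107 without WT d8 replicate 2, to 233 without AMPK-KO d8 replicate 1 and to 552 without AMPK-KO d8 replicate 2. Without WT d0 replicate 1 or 2 the count of members rose to 11 and 12, and that of all genes to 889 and 902.

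Type VI collagen is listed for its level, and no chain passed the test between AMPK-KO and WT in the fit without the replicate block. *Col6a1* was at 453.5 and 612 TPM in WT d8 and at 148 and 77.2 TPM in AMPK-KO d8 (log2 fold change −2.20 ± 0.73, SE, adjusted p = 0.134, edgeR). *Col6a2* was at 169 and 240 TPM in WT d8 and at 26.9 and 13.9 TPM in AMPK-KO d8 (adjusted p = 0.0823, edgeR). *Col6a3*, which encodes the remaining chain of the same molecule, was at 24.1 and 47.4 TPM in WT d8 and at 87.8 and 27.3 TPM in AMPK-KO d8, with overlapping groups (adjusted p = 0.479, edgeR); it turned from higher to lower in AMPK-KO without AMPK-KO d8 replicate 1. With the replicate block *Col6a2* was called lower at d8 (adjusted p = 0.0486, edgeR) and *Col6a1* was not (adjusted p = 0.0775, edgeR), and with only the d8 libraries both were (adjusted p = 0.0267 and 0.0485, edgeR). Both were also called lower at d0 without WT d0 replicate 2, at d8 without either WT d0 library, and on both days by the DESeq2 Wald test or with no filter on low counts.

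The log2 fold changes of the 31 tested members had a median of −0.64 at d0 and one of −1.19 at d8, against −0.0010 and 0.039 over all 14329 tested genes. With members at the floor of 3 counts in AMPK-KO set to their bound, and those at the floor in both genotypes left out, the medians were −0.77 and −1.19. By class, the medians at d8 were −0.78 for 10 fibrillar genes, −0.29 for 5 basement membrane genes and −2.74 for 16 other collagens, or −2.28 for the last with members at their bound. Some members passed the filter through WT d8 alone, such as *Col13a1*, with 13 and 16 counts there and none elsewhere in the first table. Their negative values at d8 follow from this, so the medians describe the tested members and are no evidence of a change in a class. The members with the highest levels, *Col3a1*, *Col1a2* and *Col5a2*, had changes between −0.34 and 0.25 at d8, none of them called, and each changed sign when 1 d8 library was left out.

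**Figure D3:**
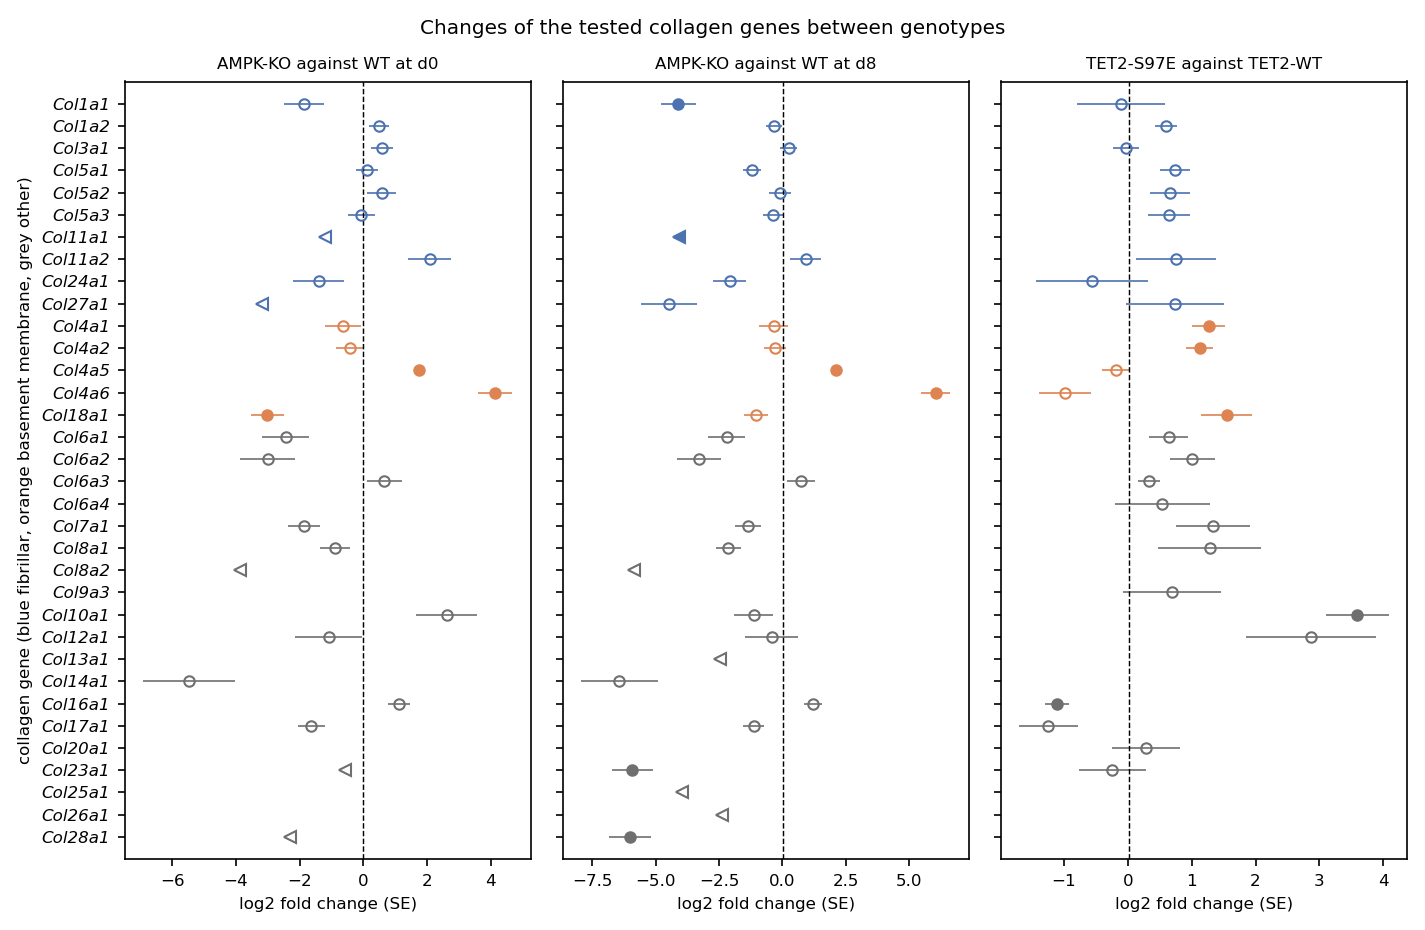
Fitted log2 fold change of each tested collagen gene (circles, bars are the SE) between AMPK-KO and WT at d0 and d8 and between TET2-S97E and TET2-WT, by class; filled symbols passed an adjusted p of 0.05, triangles are bounds for genes with at most 3 counts in each library of 1 genotype, genes untested or at the floor in both genotypes have no symbol, and the dashed line is the median of all genes. *Col4a5* and *Col4a6* stand to the right in the first 2 panels, and *Col4a1*, *Col4a2*, *Col18a1* and *Col10a1* in the third, with *Col16a1* to the left.

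Markers of other cell types moved with the genotypes. Of 8 fibroblast markers, 5 were tested. *Cd34* and *Ly6a* fell in AMPK-KO at d0, and *Cd34* fell at d8. Log2 fold changes were below 0 for 4 and above 0 for 1 at d0, and below 0 for 3 and above 0 for 2 at d8. The summed level of all 8 was 1007 and 623 TPM in WT d0, 18.0 and 16.1 TPM in AMPK-KO d0, 1255 and 1612 TPM in WT d8 and 111.5 and 23.2 TPM in AMPK-KO d8. *Ly6a*, which is not specific to fibroblasts, made up 595.5 to 1562 TPM in WT, and *Tcf21* and *Thy1* had no counts in any library of the table. Of 6 myoblast markers, *Myod1*, *Pax7* and *Msc* were lower at d0 and *Pax7* at d8. Their summed level, led by *Des*, was 1820 and 2578 TPM in WT d0, 1225 and 1505 TPM in AMPK-KO d0, 3680 and 4073 TPM in WT d8 and 1645 and 3400 TPM in AMPK-KO d8. Of 6 myotube markers, *Myog* was lower at d0 (41.0-fold, adjusted p = 0.0116, edgeR) and none was called at d8; all 6 had log2 fold changes below 0 at d0, with a median of −4.29, and 4 of 6 at d8, with a median of −0.44. Of the smooth muscle and myofibroblast, endothelial, chondrocyte and osteoblast markers none was called in either comparison, and the summed levels of the last 3 lists, led by *Tek*, *Sox9* and *Runx2*, were at most 8.86, 141 and 41.2 TPM in the table. The part of all these markers in the collagen results was not tested. In bulk RNA, fewer cells of a type and less RNA per cell cannot be told apart.

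Which collagen genes change from d0 to d8? In WT cells from d0 to d8, *Col3a1*, *Col10a1*, *Col23a1*, *Col24a1*, *Col26a1* and *Col28a1* rose and *Col18a1* fell. The 6 called higher stand against 5.78% of all tested genes and the 1 called lower against 6.58%. *Col3a1* was at 1127 and 690 TPM in WT d0 and at 2513 and 3345 TPM in WT d8 (3.13-fold, log2 fold change 1.65 ± 0.36, SE, adjusted p = 0.0306, edgeR). *Col10a1*, a network-forming collagen known from growth plate cartilage, was at 0.225 and 0.1199 TPM in WT d0 and at 5.596 and 1.54 TPM in WT d8 (adjusted p = 0.0335, edgeR). *Col18a1* fell to 28.9 and 22.2 TPM in WT d8 (log2 fold change −2.64 ± 0.51, SE, adjusted p = 0.0227, edgeR). The d8 groups did not overlap the d0 groups for any of these 3 genes.

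*Col23a1* had 7 and 2 counts in WT d0 against 193 and 689 in WT d8 (log2 fold change 6.53 ± 0.84, SE, adjusted p = 0.0143, edgeR), and *Col28a1* 20 and 9 against 250 and 138 (3.78 ± 0.72, SE, adjusted p = 0.0271, edgeR). *Col24a1*, a fibrillar chain, had 10 and 8 counts against 42 and 89 (2.81 ± 0.68, SE, adjusted p = 0.0414, edgeR). *Col26a1* had no counts in WT d0 and 14 and 13 in WT d8, at least 4.49-fold higher (adjusted p = 0.0441, edgeR). This call was lost with the replicate block (adjusted p = 0.0542), where *Col11a2* was called in its place. The comparison shares the WT d8 libraries with that of AMPK-KO and WT at d8, and the WT d0 libraries with that at d0. The values of *Col23a1* and *Col28a1* at d8 there, and of *Col18a1* at d0, are thus not independent of these. Without WT d0 replicate 2, WT d8 replicate 1 or WT d8 replicate 2 almost nothing was called over all genes (0, 2 and 0, from 1771), and no member was among the calls. Without WT d0 replicate 1 there were 11 members called, *Col10a1*, *Col24a1* and *Col26a1* not among them, and 2260 genes in all. The call of *Col26a1* was also lost without any 1 of the AMPK-KO libraries, and that of *Col24a1* without AMPK-KO d8 replicate 1.

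In AMPK-KO cells *Col4a5* alone rose from d0 to d8 (1.93-fold, log2 fold change 0.95 ± 0.18, SE, adjusted p = 0.0264, edgeR), against 4.81% of tested genes called higher and 4.95% called lower. With the block *Col4a6* was called as well, and leaving out any 1 AMPK-KO or WT d8 library ended the call of *Col4a5*, with calls over all genes going from 1398 to between 0 and 923, while 4 members were called without WT d0 replicate 1 or without WT d0 replicate 2. *Col3a1* was at 996 and 1627 TPM in AMPK-KO d0 and at 3972 and 2757 TPM in AMPK-KO d8 (log2 fold change 1.31 ± 0.35, SE, adjusted p = 0.0603, edgeR). The difference of the d8 changes between the genotypes was called for 0 collagen genes, as for 0% of all genes in either direction, by edgeR. At an unadjusted p under 0.05 it held 5 members, *Col1a1*, *Col4a6*, *Col5a1*, *Col10a1* and *Col18a1*, and 729 of all genes. The DESeq2 Wald test called 0 members and 60 genes in all.

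All 6 myotube markers rose in WT from d0 to d8 and 5 of 6 in AMPK-KO. Their summed level, led by *Acta1* in every library but AMPK-KO d0 replicate 2, where *Tnnt3* led, was 270 and 172 TPM in WT d0, 9498 and 12810 TPM in WT d8, 36.95 and 26.5 TPM in AMPK-KO d0 and 3379 and 18900 TPM in AMPK-KO d8. The myofibroblast marker *Postn* rose in WT as well, from 18.2 and 1.98 TPM to 215 and 369 TPM. Of the fibroblast markers, *Dpt* rose in WT from 9 and 5 counts to 145 and 105 (17.9-fold, adjusted p = 0.0266, edgeR) and in AMPK-KO from 2 and 5 counts to 437 and 76 (60.7-fold, adjusted p = 0.0219, edgeR). *Pi16* rose in WT from 5 and 6 counts to 48 and 141 (16.1-fold, adjusted p = 0.0219, edgeR), and the myoblast marker *Myod1* rose in AMPK-KO (8.06-fold, adjusted p = 0.0217, edgeR). The part of these cell states in the collagen changes was not tested.

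**Figure D4:**
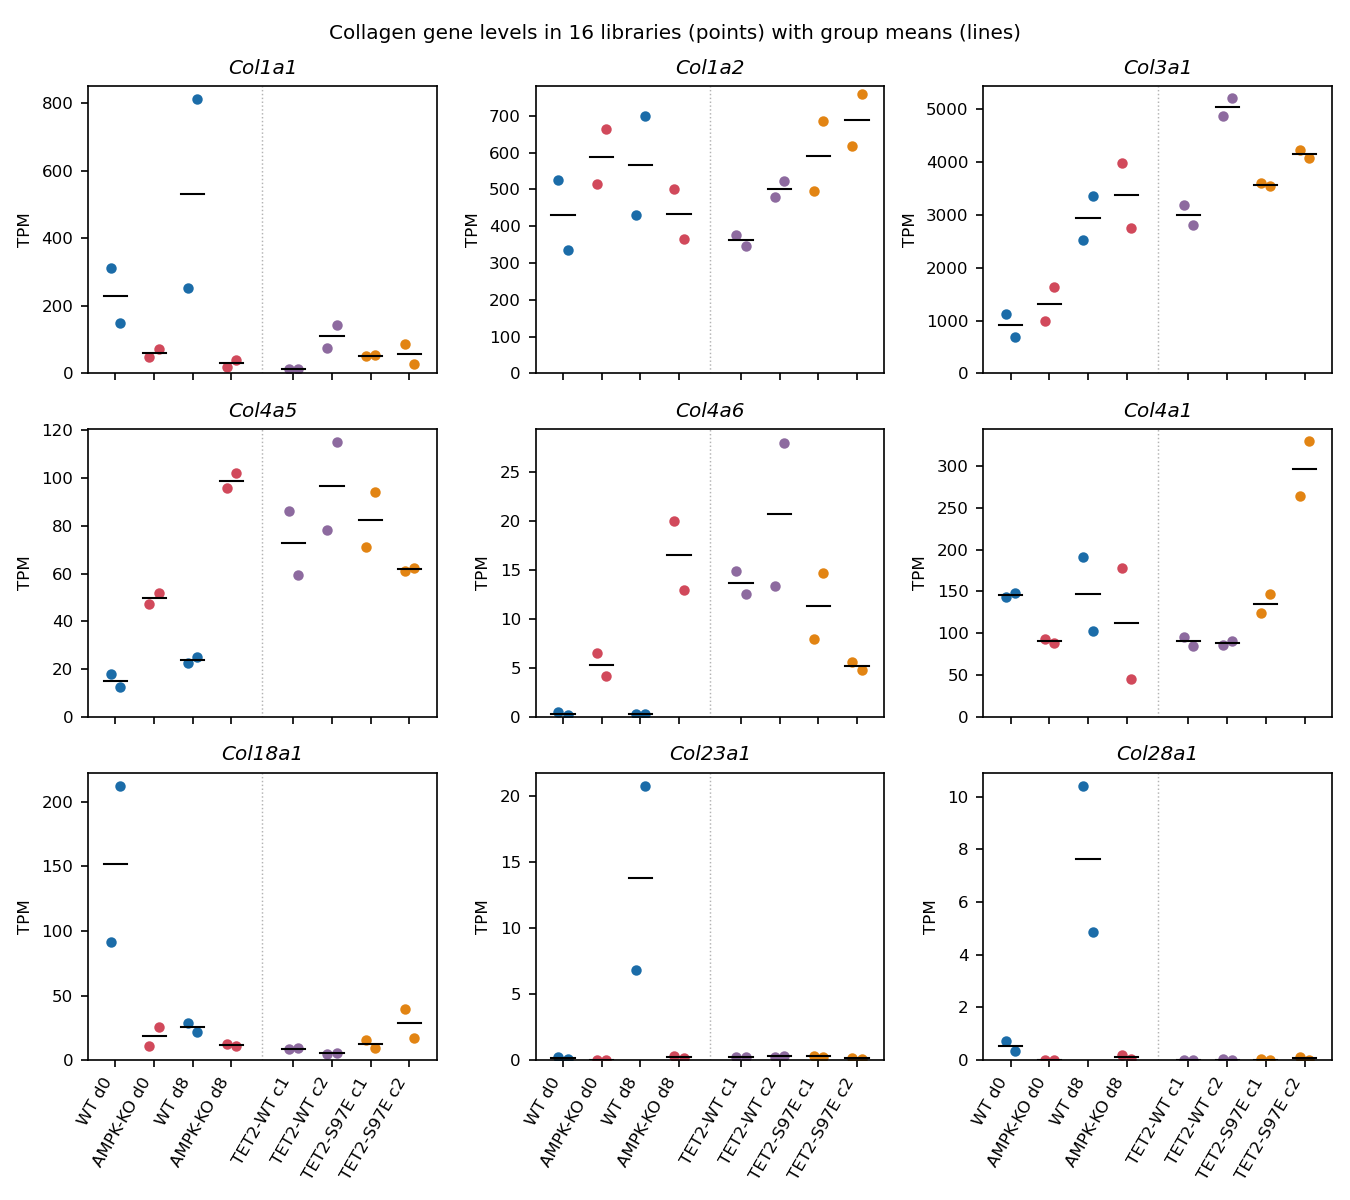
TPM of 9 collagen genes in the 16 libraries, with points for libraries and lines for the mean of the 2 libraries of a group; every axis starts at 0, colours are as in the plot of partner ratios, and the dotted line separates the tables, which were normalized separately. *Col4a5* is at least 47.2 TPM in every AMPK-KO d0 and d8 library and at most 24.9 TPM in every WT library, whereas *Col23a1* and *Col28a1* are above 1 TPM only in WT d8.

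Which collagen genes differ between TET2-S97E and TET2-WT cells, both without AMPK? *Col4a1*, *Col4a2*, *Col10a1* and *Col18a1* rose in TET2-S97E cells and *Col16a1* fell. The 4 called higher stand against 3.71% of the 13433 tested genes and the 1 called lower against 3.28%. Of the 5 tested basement membrane genes, 3 rose, and none of the 9 fibrillar genes was called. These 3 calls were lost with clone as a random effect (limma-voom) and with counts summed per clone (edgeR). The median log2 fold change over the 27 tested members was 0.65, against 0.011 over all genes.

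*Col4a1* was at 95.95, 84.95, 86.3 and 91.2 TPM in the 4 TET2-WT libraries and at 124, 147, 264 and 329 TPM in the 4 TET2-S97E libraries, with clone 1 given before clone 2. *Col4a2* was at 84.9, 76.8, 76.8 and 99.8 TPM in TET2-WT and at 118, 149, 204 and 264 TPM in TET2-S97E. All TET2-S97E values of both genes lay above all TET2-WT values, and clone 2 had the higher levels. The log2 fold changes were 1.27 ± 0.26 for *Col4a1* (SE, adjusted p = 0.0221) and 1.13 ± 0.21 for *Col4a2* (SE, adjusted p = 0.0180, edgeR), and the ratio of their TPM stayed between 0.914 and 1.29. *Col4a5* and *Col4a6*, the pair that was higher in AMPK-KO cells, were not called here: *Col4a5* had a log2 fold change of −0.19 ± 0.23 (SE, adjusted p = 0.685, edgeR) and *Col4a6* of −0.99 ± 0.41 (SE, adjusted p = 0.178, edgeR). *Col4a6* was called lower in TET2-S97E without TET2-S97E clone 1 (log2 fold change −1.79, adjusted p = 0.0271, edgeR) and without its replicate 2 alone (−1.48, adjusted p = 0.0407, edgeR).

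*Col18a1* was at 8.34, 9.29, 5.145 and 5.32 TPM in TET2-WT and at 15.99, 9.81, 39.96 and 17.4 TPM in TET2-S97E (log2 fold change 1.55 ± 0.40, SE, adjusted p = 0.0485, edgeR). This call was lost with the replicate block. *Col10a1* was at 1.14, 1.10, 0.597 and 0.371 TPM in TET2-WT and at 6.90, 4.80, 10.4 and 17.7 TPM in TET2-S97E (log2 fold change 3.59 ± 0.49, SE, adjusted p = 0.0071, edgeR). Its exons overlap those of *Nt5dc1* by 18 bases on the opposite strand, and whether the counting used strand is not stated. *Col16a1*, a fibril-associated collagen, was at 76.2, 75.5, 97.1 and 110.5 TPM in TET2-WT and at 37.15, 49.9, 33.3 and 41.2 TPM in TET2-S97E (log2 fold change −1.11 ± 0.18, SE, adjusted p = 0.0112, edgeR). The genotypes did not overlap for any of these 3 genes.

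Libraries of 1 clone are not independent. When counts were summed per clone, leaving 2 against 2, none of the 5 was called by edgeR. With clone as a random effect in limma-voom, *Col10a1* and *Col16a1* were called, as they were when any single library was left out. The calls of *Col4a1*, *Col4a2* and *Col18a1* were lost when TET2-WT clone 1 replicate 1, TET2-WT clone 1 replicate 2 or TET2-WT clone 2 replicate 1 was left out, and that of *Col18a1* also without TET2-WT clone 2 replicate 2, TET2-S97E clone 1 replicate 1 or either library of TET2-S97E clone 2. Leaving out the whole of TET2-WT clone 1 or clone 2 ended the calls of *Col4a1*, *Col4a2* and *Col18a1*, leaving out TET2-S97E clone 2 that of *Col18a1*, and without TET2-S97E clone 1 there were 9 calls. Over all genes, summing per clone left 0 calls of 938, and leaving out those first 3 libraries left 315, 412 and 304.

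Here too, markers moved with the genotype. Of 6 myotube markers, *Myog*, *Ckm*, *Acta1* and *Myh3* were higher in TET2-S97E, and their summed level was 18.97, 22.5, 56.6 and 419.9 TPM in TET2-WT and 8679, 2604, 2950 and 609 TPM in TET2-S97E. The smooth muscle and myofibroblast gene *Acta2* was higher too, at 553, 606, 1083 and 801 TPM against 2698, 1365, 3042 and 3119 TPM. The endothelial gene *Tek* was lower, at 4.245, 3.53, 2.61 and 0.960 TPM in TET2-WT and under 1 TPM in TET2-S97E. None of the 5 tested fibroblast markers was called, and the summed level of all 8 was 57.2, 52.5, 129 and 66.2 TPM in TET2-WT and 140, 86.9, 57.9 and 73.7 TPM in TET2-S97E, with *Tcf21* at 0 in all 8 libraries. The myoblast markers *Myod1* and *Pax7* were higher in TET2-S97E. The share of counts from mitochondrial genes was 1.14, 1.002, 1.38 and 2.145% in TET2-WT and 2.29, 2.12, 2.03 and 2.09% in TET2-S97E, with overlapping genotypes, and 0.568 to 1.43% in the first table. The part of the markers and of this share in the collagen results was not tested.

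Clones of 1 genotype differed in collagen genes as well. TET2-WT clone 2 was higher than clone 1 in *Col1a1*, *Col5a2* and *Col24a1*, which are 3 of 9 tested fibrillar genes, against 0.463% of the 14459 genes tested called higher and 0.394% called lower. *Col1a1* was at 13.5 and 13.9 TPM in clone 1 and at 75.1 and 144.5 TPM in clone 2 (log2 fold change 2.91 ± 0.50, SE, adjusted p = 0.0368, edgeR). *Col5a2*, a chain of the type V collagen that sits inside type I fibrils, was at 216 and 177 TPM in clone 1 and at 456 and 511 TPM in clone 2 (adjusted p = 0.0157, edgeR). *Col24a1* was at 0.914 and 0.814 TPM in clone 1 and at 6.89 and 5.30 TPM in clone 2 (adjusted p = 0.0088, edgeR). All 3 calls were lost without either library of clone 1, where 2 and 0 of all genes were called in place of 124, and those of *Col1a1* and *Col5a2* without clone 2 replicate 2, while 5 members were called when either library of TET2-S97E clone 2 was left out. Of the markers, *Myod1* and *Postn* were higher and *Ly6a* lower in clone 2. No myotube marker was called, but all 5 tested had log2 fold changes above 0, with a median of 3.23, and the summed level of the 6 was 18.97 and 22.5 TPM in clone 1 and 56.6 and 419.9 TPM in clone 2. The part of these markers in the differences was not tested.

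TET2-S97E clone 2 was higher than clone 1 in *Col4a1*, *Col5a1*, *Col6a1*, *Col6a2*, *Col8a1*, *Col12a1* and *Col24a1*, 7 of 27 tested members, against 3.35% of all genes called higher and 2.82% called lower. *Col12a1*, which binds fibrils, was at 31.7 and 20.3 TPM in clone 1 and at 257 and 667.5 TPM in clone 2 (16.04-fold, log2 fold change 4.004 ± 0.45, SE, adjusted p = 0.0016, edgeR). *Col8a1*, a network-forming chain, was at 21.2 and 23.01 TPM in clone 1 and at 312 and 148 TPM in clone 2 (log2 fold change 3.24 ± 0.42, SE, adjusted p = 0.0029, edgeR). *Col6a1* and *Col6a2* were 2.00-fold and 2.51-fold higher in clone 2. For *Col12a1*, *Col8a1*, *Col6a1* and *Col6a2* the difference between TET2-S97E and TET2-WT was not called, and the 2 genotypes overlapped. The calls of *Col4a1*, *Col5a1* and *Col6a1* were lost without clone 1 replicate 1 or clone 2 replicate 2, and that of *Col5a1* also without either library of TET2-WT clone 1, clone 1 replicate 2 or clone 2 replicate 1. Of the markers, *Myod1*, *Cdh15*, *Des*, *Myh3*, *Dpt* and *Cdh5* were lower and *Pi16* higher in clone 2. All 5 tested myotube markers had log2 fold changes below 0, with a median of −1.82. The part of these markers in the differences was not tested.

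The AMPK-KO d0 libraries of the first table and the TET2-WT libraries of the second both come from d0 cells without AMPK, and are set side by side without a test. *Col6a1* was at 39.6 and 33.1 TPM in AMPK-KO d0 and at 433 to 793 TPM in TET2-WT. *Col3a1* was at 996 and 1627 TPM against 2803 to 5207 TPM. *Col4a5* was at 47.2 and 52.0 TPM against 59.5 to 115 TPM, above the 12.5 to 24.9 TPM of the WT libraries in either case. *Col18a1* was at 11.05 and 25.9 TPM against 5.145 to 9.29 TPM.

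The enzymes and partners of collagen biosynthesis were read from a list of 50 genes. Between AMPK-KO and WT, 2 of the 43 tested genes fell at d0, against 2.83% of all genes, 4 fell at d8, against 3.98%, and none rose. At d0 this share is near that of all genes. *Adamts2*, the protease that removes the amino-terminal propeptide of fibrillar procollagens, was at 50.5 and 81.7 TPM in WT d8 and at 0.660 and 0.532 TPM in AMPK-KO d8 (log2 fold change −6.74 ± 0.71, SE, adjusted p = 0.0057, edgeR). At d0 it was lower as well (log2 fold change −5.86 ± 0.71, SE, adjusted p = 0.0109, edgeR). *Tll1*, a protease that removes the carboxy-terminal propeptide, was at 2.07 and 1.24 TPM in WT d8 and had no counts in any AMPK-KO library, at least 26-fold lower at d8 and at least 13-fold at d0 (adjusted p = 0.0267 and 0.0461, edgeR). *Lum*, the fibril-binding proteoglycan lumican, was at 13.6 and 38.2 TPM in WT d8 and at 1.62 and 1.54 TPM in AMPK-KO d8 (adjusted p = 0.0401, edgeR), and *Itga1*, a collagen receptor subunit, was at least 9.72-fold lower (adjusted p = 0.0423, edgeR). For these genes every WT library of the day lay above every AMPK-KO library. None of the 19 tested genes of chain modification and folding, such as the prolyl hydroxylases and lysyl hydroxylases, was called in either comparison. *Loxl1*, a cross-linking enzyme, and *P3h2* had adjusted p = 0.0618 and 0.0822 at d0, and the receptor subunit *Itga11* had adjusted p = 0.0566 at d8 (edgeR). With the replicate block 7 genes fell at d8, *Itga11*, *Adamts14* and the lysyl hydroxylase *Plod3* in addition, and *Loxl4* was called higher at d0. Over all 14329 tested genes the block called 815 lower and 329 higher at d8, and 568 lower and 172 higher at d0. At d8 the count in the list was 10 lower and 1 higher by the DESeq2 Wald test, against 1101 lower and 555 higher over all genes. With no filter on low counts it was 15 lower and 2 higher of 47, against 1670 lower and 833 higher of 25084. At d0 the list had 7 lower and 2 higher by the Wald test, against 1012 and 381 over all genes. With no filter it had 13 lower and 2 higher of 47, against 1453 and 573 of 25084. With only the libraries of that day the d0 call of *Tll1* (adjusted p = 0.0699, edgeR) and the d8 call of *Itga1* (adjusted p = 0.0509, edgeR) were lost. At d8 this setting called 6 genes lower, with *Fmod*, *Itga11* (adjusted p = 0.0158, edgeR) and *Plod1* in addition. Over all genes it called 600 lower and 171 higher of 13744. *Adamts2* lost its d0 call without either AMPK-KO d0 library and kept its d8 call without any 1 library, and leaving out any 1 d8 library ended the d8 calls of *Tll1*, *Lum* and *Itga1*. The d0 call of *Tll1* was lost without WT d0 replicate 1, either AMPK-KO d0 library or either WT d8 library, and the d8 call of *Itga1* also without either AMPK-KO d0 library.

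In TET2-S97E against TET2-WT, 2 of 38 tested genes of this list were called, 1 higher and 1 lower, against 3.71% of all genes called higher and 3.28% called lower. *Bgn*, the proteoglycan biglycan, was at 291, 270, 474 and 415 TPM in TET2-WT and at 630, 633, 1431 and 1016 TPM in TET2-S97E (log2 fold change 1.37 ± 0.27, SE, adjusted p = 0.0207, edgeR). *Loxl4*, a cross-linking enzyme, was at 44.35, 35.5, 26.1 and 18.5 TPM in TET2-WT and at 13.8, 11.7, 15.1 and 15.5 TPM in TET2-S97E (log2 fold change −1.14 ± 0.25, SE, adjusted p = 0.0289, edgeR). The genotypes did not overlap for either gene. Neither call was kept when libraries of 1 clone were not taken as independent: with counts summed per clone the adjusted p was 0.347 for *Bgn* and 0.366 for *Loxl4* (edgeR), and with clone as a random effect 0.05295 and 0.1055 (limma-voom). Both were lost without either library of TET2-WT clone 1 or without that clone, and that of *Loxl4* also without TET2-WT clone 2 replicate 1, any 1 TET2-S97E library or either TET2-S97E clone. Without TET2-S97E clone 1 there were 6 genes higher and 1 lower of 40 tested, against 484 higher and 316 lower of all 14206 genes. Besides *Bgn* these were *Fmod*, *Itga11*, *Lox*, *P3h2*, *Plod2* and *Thbs1*. The DESeq2 Wald test called 4 higher and 3 lower of 38, against 981 higher and 844 lower of all 13433 genes. Between the TET2-S97E clones, 11 of 40 tested genes were higher and 1 lower in clone 2, against 3.35% and 2.82% of all genes, and 7 to 12 were higher with 1 library left out. Those higher included the cross-linking enzyme *Lox* (log2 fold change 1.65 ± 0.18, SE, adjusted p = 0.00141, edgeR) and the lysyl hydroxylase *Plod2* (1.56 ± 0.18, SE, adjusted p = 0.00202, edgeR). *Adamts2* and *Tll1* had too few counts to be tested in this table: *Adamts2* was at most 0.232 TPM and *Tll1* had no counts in any of its libraries.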

How the data were processed

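RNA-seq counts of 16 C2C12 libraries were used, in 2 tables. Read counts per gene were deposited by the authors. The submitters' processing notes name bcl2fastq 2.17, Trim Galore 0.4.5, STAR 2.5.3a and featureCounts 1.5.3, and the study's methods name the mm10 genome with GENCODE M12. Whether counting used strand or multiply mapped reads is not given in the sources used here. Symbols, exon lengths and coordinates came from GENCODE M21 (49326 of 49585 IDs matched), and promoter bases from RefSeq. All columns were mapped to samples (0 were not).

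Each table was fitted on its own over all genes that passed edgeR's filterByExpr, with TMM normalization and the edgeR 4.0.16 quasi-likelihood test (R 4.3.3), Benjamini-Hochberg adjustment over all genes tested and a threshold of 0.05. The first table had a mean for each of 4 groups. TET2 genotypes were compared 4 against 4, and clones in a model with 4 clone means. Fold changes against a group with at most 3 counts in each library were given as bounds against that floor. TPM was computed from counts and merged exon lengths. The steps were tested on simulated data. Same-numbered libraries of the first table deviated together in all 6 pairs of groups (correlations 0.119 to 0.324). Its replicate numbers may thus mark pairs, which the labels do not state. In the TET2 table these correlations ran from −0.0214 to 0.506. The values and p-values given leave a possible pairing out unless a replicate block is named, and the fit with the block is given beside a result where it changed the call.

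The text names members called in any comparison, the 10 with the highest mean TPM in each table, at most 6 biosynthesis genes per genotype comparison (further ones, named for a call under an alternative or between clones, were chosen after their values were seen), and *Prkaa1*, *Prkaa2* and *Tet2*. The members, classes and lists were chosen with earlier results of these data known. Alternatives were DESeq2 1.42.0 (its size factors and its Wald test), other count filters, the replicate block, single libraries or clones left out, counts summed per clone and limma 3.58.1 voom with clone as a random effect. The alternatives for the comparisons between clones and for the biosynthesis genes and uncalled members were chosen after seeing the data.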

Additional observations from a re-analysis of the deposited data

Results flagged for a closer look

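In a group of 4 libraries, *Col7a1*, the collagen of anchoring fibrils, had 1 library far from the others: it was at 1.32 log2 CPM in TET2-S97E clone 2 replicate 1, against a median of 2.02 in the other TET2-S97E libraries. The gap was 0.928 of the whole range, above Dixon's 95% critical value for 4 libraries. Of 54 groups looked at, 1 stood out in this way, and chance gives about 1 in 20.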

How the results depend on the processing

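With 2 libraries per group, depth limits members of few counts, and no fold change of a called collagen or biosynthesis gene reversed under any setting. Of the uncalled ones printed, 5 did: at d8 between AMPK-KO and WT, with 1 library left out, *Col6a3* ran from −0.31 to 1.32, *Col1a2* from −0.63 to 0.072, *Col5a2* from −0.34 to 0.078 and *Col3a1* from −0.0050 to 0.49, and *Col4a5* was at 0.070 for TET2-S97E without TET2-S97E clone 2. DESeq2's size factors left all calls of the genotype and time comparisons as they were. The DESeq2 Wald test called 14 members between AMPK-KO and WT at d0 and 14 at d8, 11 for WT and 3 for AMPK-KO from d0 to d8, 9 for TET2-S97E and 10 between the TET2-WT clones. Without a filter on low counts 18, 21, 19 and 12 were called in the first 4 of these, 5 in the difference of the d8 changes, and 13 and 12 between the TET2-WT and TET2-S97E clones. With at least 10 counts in every library, 2 were called at d8 and 2 in WT over time. Calls over all genes moved too: in those first 4 comparisons they went from 505, 766, 1771 and 1398 to 1393, 1656, 2762 and 2532 by the Wald test, to 2026, 2503, 3293 and 3039 with no filter and to 740, 1144, 2360 and 1854 with the block, for TET2-S97E from 938 to 1825 and between the TET2-WT clones from 124 to 894 by the Wald test, and with no filter from 0 to 449 in the difference and from 124 and 892 to 1627 and 1680 between the clones. With at least 10 counts in every library they were 277 at d8 and 1525 in WT. With the replicate block the counts were 5, 10, 7 and 2 in the first table and 4 for TET2-S97E, *Col18a1* being lost; the same-numbered TET2 libraries did not all deviate together (correlations −0.0214 to 0.506). With only that day's libraries 10 were called at d8, and 771 over all genes. For TET2-S97E the count was 0 with counts summed per clone, 2 with limma-voom, 2 without TET2-WT clone 1 and 9 without TET2-S97E clone 1, against 0, 166, 183 and 800 over all genes. Leaving out 1 library gave 0 to 6 at d0, 2 to 12 at d8, 0 to 11 in WT and 0 to 4 in AMPK-KO over time, 2 to 6 for TET2-S97E, 0 to 5 between TET2-WT clones and 5 to 8 between TET2-S97E clones. Over all genes it gave 17 to 613, 107 to 902, 0 to 2260, 0 to 1737, 304 to 1092, 0 to 313 and 472 to 1014 in the same order. The cause of these changes was not tested.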
